A study of Mus musculus with 6 samples.

Results

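The genes described here are 6 brakes on the cell cycle: the cyclin-dependent kinase inhibitors Cdkn2a, Cdkn2b, Cdkn2c, Cdkn1a and Cdkn1b, and Trp53, which encodes p53. CpG methylation at their loci was compared between wild-type mouse blood progenitors and progenitors without Tet2 and Tet3. The members were chosen by position on the mouse build mm9, as every listed CpG in 5 intervals: chr4:88895000-88980000 for Cdkn2a and Cdkn2b, chr4:109315000-109350000 for Cdkn2c, chr17:29210000-29250000 for Cdkn1a, chr6:134855000-134890000 for Cdkn1b and chr11:69380000-69420000 for Trp53. These intervals held 944, 536, 646, 623 and 767 CpGs, in all 3516 of the 20451903 CpGs listed. Both the CpG-dense promoters and the sequence around them were compared.

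LSK cells are bone marrow cells without lineage markers that carry Sca-1 and c-Kit, and include the blood stem cells and early progenitors. Whole-genome bisulfite sequencing was done on 3 samples labelled Wild Type (WT) and 3 labelled Tet2/3 DKO (DKO), all of LSK cells. The labels call them biological replicates and do not say how many mice each sample held. The age of the mice, the way in which the alleles were deleted and the cells in which this happened are not stated in the sources used here. Bisulfite leaves 5-methylcytosine and 5-hydroxymethylcytosine alike as cytosine, so a level below is the share of reads with either mark. P-values measure the spread between these samples, and the levels are not expression values.

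INK4 proteins, the products of Cdkn2a, Cdkn2b and Cdkn2c, bind the kinases Cdk4 and Cdk6 and keep them from cyclin D, which holds the retinoblastoma protein in its active, growth-restraining form. CIP/KIP proteins, the products of Cdkn1a and Cdkn1b, bind complexes of kinase and cyclin, above all those of Cdk2. Cdkn2a makes p16INK4a from one start and, from another start upstream and in another reading frame, Arf, which frees p53 from its inhibitor Mdm2. Promoters of these genes lie in CpG islands, which are unmethylated in most normal cells, and methylation of the CDKN2B and CDKN2A islands is known from human blood cancers. Tet enzymes oxidise 5-methylcytosine as a step towards its removal.

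The depth was 3.46 to 3.56 reads per CpG in the WT samples and 4.09 to 5.46 in the DKO samples, so levels were taken over many CpGs. A read was counted at each CpG that it covers. The 5 loci had 0.72 to 1.28 times the mean autosomal depth of their library in every sample, so none was missing. DKO samples had no read at 44 successive CpGs on chromosome 3 and at 50 on chromosome 6, where the WT samples had 118 to 191 reads; the nearest gene starts were those of Tet2 and Tet3. A stretch of 21 CpGs on chromosome 12 met the same rule. These stretches were found by their lack of DKO reads. The mitochondrial genome was taken as a rough measure of unconverted cytosine. There 1.21% to 1.37% of WT reads and 1.53% to 1.86% of DKO reads were called methylated, so values near this level say little. It is not a floor for every locus: within 500 bp of the upstream Cdkn2c start, 0 of 693 WT and 0 of 1587 DKO reads were methylated. Of genes that mark the sorted cells, 6 tested promoters of Kit, Cd34, Runx1 and Gata2 had group means under 10%. Promoters of the mature-cell genes Elane, Cd79a, Cd3e and Itgam had group means of 48.0% to 92.7%.

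The 250 bases before 6 of the starts are shown because they carry the main finding, the low methylation at these promoters. They are read 5′ to 3′ along the gene, with each CG in capitals. The letters are RefSeq's (GRCm38.p6); the mm9 positions come from a match of the spacing of their CpGs to the listed CpGs, in which every CpG of these stretches was found. The first stretch is before the Arf start of Cdkn2a (chr4:88940524-88940773, minus strand), the next before its p16 start (chr4:88928097-88928346, minus), then Cdkn2b (chr4:88956942-88957191, minus), Cdkn1a (chr17:29230464-29230713, plus), Cdkn1b (chr6:134870169-134870418, plus) and Trp53 (chr11:69393611-69393860, plus).
Cdkn2a, Arf start: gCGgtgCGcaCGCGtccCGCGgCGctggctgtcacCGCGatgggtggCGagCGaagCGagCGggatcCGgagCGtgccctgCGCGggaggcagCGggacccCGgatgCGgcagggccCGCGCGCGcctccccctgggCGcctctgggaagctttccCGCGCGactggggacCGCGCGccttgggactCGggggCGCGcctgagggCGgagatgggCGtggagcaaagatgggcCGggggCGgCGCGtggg
Cdkn2a, p16 start: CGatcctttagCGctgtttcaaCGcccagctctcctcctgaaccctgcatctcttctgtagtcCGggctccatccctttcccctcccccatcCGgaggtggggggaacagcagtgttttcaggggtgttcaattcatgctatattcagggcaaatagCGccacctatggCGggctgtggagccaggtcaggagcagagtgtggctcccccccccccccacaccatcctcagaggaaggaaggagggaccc
Cdkn2b: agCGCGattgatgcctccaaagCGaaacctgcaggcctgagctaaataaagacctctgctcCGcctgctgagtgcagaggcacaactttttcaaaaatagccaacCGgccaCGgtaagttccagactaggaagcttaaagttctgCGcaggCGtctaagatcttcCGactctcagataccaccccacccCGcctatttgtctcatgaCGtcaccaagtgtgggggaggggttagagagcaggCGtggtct
Cdkn1a: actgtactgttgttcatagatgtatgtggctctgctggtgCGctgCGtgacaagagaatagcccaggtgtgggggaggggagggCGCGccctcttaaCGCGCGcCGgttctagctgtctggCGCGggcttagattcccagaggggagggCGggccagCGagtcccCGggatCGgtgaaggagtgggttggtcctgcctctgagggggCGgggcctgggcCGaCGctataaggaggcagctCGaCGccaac
Cdkn1b: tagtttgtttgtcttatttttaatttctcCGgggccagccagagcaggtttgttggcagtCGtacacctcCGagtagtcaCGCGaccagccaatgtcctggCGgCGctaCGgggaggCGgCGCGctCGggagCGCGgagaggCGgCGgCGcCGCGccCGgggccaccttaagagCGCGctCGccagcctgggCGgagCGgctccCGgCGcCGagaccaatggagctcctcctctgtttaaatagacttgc
Trp53: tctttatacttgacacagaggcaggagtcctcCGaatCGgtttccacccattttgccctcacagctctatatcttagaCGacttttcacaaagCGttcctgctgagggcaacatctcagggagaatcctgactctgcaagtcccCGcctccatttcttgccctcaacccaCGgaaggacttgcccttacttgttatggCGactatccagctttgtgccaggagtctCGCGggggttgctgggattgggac

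These stretches differed widely in CpG content. The Arf start of Cdkn2a had 40 CpGs in 250 bases and Cdkn1b had 28, where the median of the 32851 RefSeq promoters was 6. The p16 start and Trp53, with 7 and 9, lay near that median, while Cdkn2b had 12 and Cdkn1a 19. Methylated reads were rare in all of them. Before the Arf start 0 of 273 WT reads and 1 of 637 DKO reads were methylated, and before the Trp53 start 0 of 141 and 0 of 174. At Cdkn1b the counts were 1 of 164 in WT and 0 of 275 in DKO. At the p16 start they were 0 of 50 and 1 of 85, at Cdkn2b 1 of 100 and 11 of 223, and at Cdkn1a 8 of 256 and 6 of 244. Before the upstream start of Cdkn2c, whose stretch is not printed and has 29 CpGs, 0 of 228 WT reads and 0 of 418 DKO reads were methylated. Before its downstream start, also not printed and with 6 CpGs, the counts were 5 of 76 in WT and 0 of 107 in DKO.

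Short motifs were searched on both strands of the stretch from 250 bases before to 50 after each start, as a description of the letters. GGGCGG, the core of a GC box, was found 3 times at the Arf start, 4 times at the upstream Cdkn2c start, 2 times at Cdkn1a, and 1 time each at the p16 start, Cdkn2b and Cdkn1b. It occurs in 35.7% of all RefSeq promoters. CCAAT was found 3 times at Cdkn1b and 1 time each at the p16 start, the downstream Cdkn2c start and Trp53, and occurs in 37.4% of promoters. TATAAA was found at Trp53 alone among the members, against 13.6% of promoters. That match is on the other strand, as TTTATA at the upstream end of the printed stretch, and not close to the start. TTTCGCGC and TTTGGCGC, forms of the E2F site, were found at none of the placed member starts and occur in 0.323% and 0.514% of promoters. Overlapping matches were each counted.

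Promoters of all 6 genes stayed under 10% in both groups. Over 500 bp on each side of a start, the 8 promoters placed on mm9 had group means of 0% to 8.94% in WT and 0% to 8.10% in DKO. Of all 17213 promoters tested, 71.8% had a mean under 10%. A call needed an adjusted p under 0.05 (quasi-binomial test with limma-type moderation, Benjamini-Hochberg adjustment over all autosomal promoters) and a difference of at least 10 points. None of the 8 was called. The background was 0% of all promoters called in either direction, so the count says nothing particular about these genes. The 95% interval of the difference is therefore given for each member. The median difference was 0.468 points over the 8 promoters and 0.375 points over all promoters tested. Groups overlapped at all 8 promoters, where the DKO samples were all above WT at 10.1% of all promoters and all below at 1.9%. Of the 15 promoters of any gene in the intervals, DKO was wholly higher at 1 and wholly lower at 0. It was that of Gm12610 (start 88941084, upstream of the Arf start), with 0% in each WT sample and 0.76%, 1.52% and 5.25% in DKO. Its difference was 2.51 points (interval 0.35 to 4.67, adjusted p = 0.51 by the quasi-binomial test), and its stretch shares CpGs with that of the Arf start. An unadjusted p of 0.05 was passed at 1 of the 8, Cdkn2b, and at 1704 (9.9%) of all; limma on log2 ratios also called 0.

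**Figure D1:**
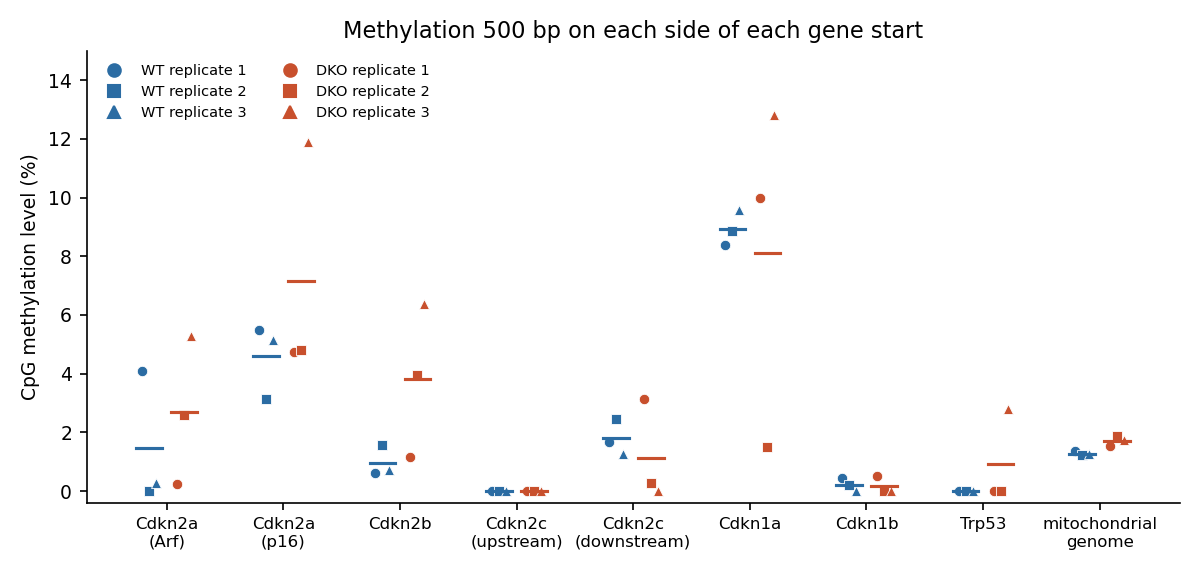
CpG methylation level (%) within 500 bp of the 8 member starts and on the mitochondrial genome, 1 point per sample and a line at each group mean (3 WT samples in blue, 3 DKO samples in orange). Every group mean lies under 10%; single samples reach 12.8% at Cdkn1a and 11.9% at the p16 start of Cdkn2a, both in DKO replicate 3.

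Among the INK4 genes, Cdkn2a was measured at both of its starts. Within 500 bp of the Arf start (position 88940523, 107 CpGs, 122 to 816 reads) the WT samples had 4.10%, 0% and 0.29% and the DKO samples 0.24%, 2.57% and 5.30%. WT replicate 1 and DKO replicate 3 were the high samples, and the groups overlapped. The means were 1.46% ± 2.29 and 2.70% ± 2.53 (n = 3 each, SD), and the difference of 1.24 points had an interval of -2.88 to 5.36. In bins of distance from the start, which were described after their values were seen, the groups did not overlap in 3 places. Over the 8 starts, 74 bins had 3 CpGs and 20 reads per sample, and DKO was wholly higher in 6 and wholly lower in 1. Bins around different starts of the same gene partly overlap, and the share over bins of all genes was not taken. Of all 1 kb windows tested, DKO was wholly higher in 9.05% and wholly lower in 3.75%. From 0.5 kb upstream to the start, 0% was methylated in each WT sample, and 0.28%, 0.95% and 5.33% in the DKO samples. From 1 to 0.5 kb upstream, the level was again 0% in each WT sample, and 1.68%, 1.36% and 3.57% in DKO. The lowest read number of any sample was 64 in the first of these bins and 46 in the second. At such depth a count of 0 also allows a few percent by counting error. Of these 6 DKO values 4 were within or under the mitochondrial range, and the part of incomplete conversion was not tested. From 1 to 2 kb downstream, the values were 36.9%, 29.6% and 23.9% in WT and 56.9%, 51.3% and 37.7% in DKO. The 1 kb window chr4:88941001-88942000, upstream of the start, had the other direction, with 10.6% in WT and 7.20% in DKO and overlapping groups.

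The start of p16INK4a (position 88928096, 37 CpGs, 73 to 229 reads) had 5.48%, 3.12% and 5.15% in WT and 4.72%, 4.80% and 11.9% in DKO. DKO replicates 1 and 2 fell within the WT range and replicate 3 was above it. The difference was 2.56 points (interval -2.86 to 7.98; adjusted p = 0.73 by the quasi-binomial test), and 0.18 without DKO replicate 3. Single CpGs there were measured coarsely: of 34 CpGs with at least 5 reads in each group, 4 had 20% or more in WT and 6 in DKO, and 0 had 50% or more in either group.

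Cdkn2b, which encodes p15INK4b, had the largest difference of the 8 promoters. Its start (position 88956941, 63 CpGs, 128 to 353 reads) had 0.62%, 1.56% and 0.70% in WT and 1.16%, 3.97% and 6.37% in DKO. DKO replicates 2 and 3 were above every WT sample, and replicate 1 was within the WT range. The means were 0.96% ± 0.52 and 3.83% ± 2.61 (n = 3, SD), with a difference of 2.87 points (interval -0.07 to 5.81), or 1.60 without DKO replicate 3. It did not pass the test (unadjusted p = 0.03, adjusted p = 0.50 by the quasi-binomial test). Of 59 CpGs with at least 5 reads in each group, 56 had no methylated read in WT and 36 in DKO, where the DKO reads were also more numerous (839 against 572). These CpGs are not independent, since a read was counted at each CpG that it covers. From 356 to 244 bp downstream of the start, most CpGs had 1 methylated DKO read each. Whether these were the same read cannot be told from the counts. The mitochondrial level differed by 0.437 points in the same direction; its part in this difference was not tested.

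Cdkn2c, which encodes p18INK4c, was measured at both of its RefSeq starts. No methylated read was seen within 500 bp of the upstream start (position 109339361, 86 CpGs), in 107, 275 and 311 WT reads or in 426, 598 and 563 DKO reads. The difference was 0 points (interval -0.31 to 0.31). With no methylated read in any sample there is no spread between replicates to measure, so this interval covers counting error only. A count of 0 allows up to 2.80%, 1.09% and 0.965% in the WT samples and up to 0.704%, 0.502% and 0.533% in the DKO samples, by counting error alone. The downstream start (position 109337977, 38 CpGs, 120 to 358 reads) had 1.67%, 2.44% and 1.27% in WT and 3.12%, 0.28% and 0% in DKO. The difference was -0.66 points (interval -3.91 to 2.60), and DKO samples lay on both sides of the WT range.

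Of the CIP/KIP genes, Cdkn1a, which encodes p21 and is a target of p53, had the highest promoter level in WT. Its placed start (position 29230714, 52 CpGs, 156 to 210 reads) had 8.38%, 8.86% and 9.57% in WT and 10.0%, 1.49% and 12.8% in DKO. DKO replicate 2 was below the WT range and the others above it, so the mean difference of -0.84 points (interval -9.16 to 7.48) depends on that library and was 2.47 points without it. The methylated reads lay largely at the upstream end in both groups. The 4 CpGs from 464 to 351 bp upstream had 54.5%, 58.3%, 100% and 90.0% in WT and 72.7%, 80%, 88.9% and 80% in DKO, with 9 to 20 reads per CpG and group. From the start to 0.5 kb downstream the level was 0% in each WT sample and 0%, 0% and 1.94% in DKO. Another RefSeq start of Cdkn1a, with 2 CpGs in its 300 bases, could not be placed and is not described.

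Cdkn1b, which encodes p27, was unmethylated at its start in both groups. Within 500 bp (position 134870419, 91 CpGs, 203 to 633 reads) the WT samples had 0.44%, 0.21% and 0% and the DKO samples 0.52%, 0% and 0%. The difference was -0.04 points, and its interval of -0.71 to 0.62 is among the narrowest of the 8.

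Trp53 shares its promoter with Wrap53, whose placed start on the other strand lies at 69393752, beside that of Trp53 at 69393861. Within 500 bp of the Trp53 start (37 CpGs, 92 to 268 reads) 0 of 178, 92 and 220 WT reads were methylated, and the DKO samples had 0%, 0% and 2.81%. DKO replicate 3 alone had methylated reads, 5 of them. The count of 0 allows up to 3.26% in WT replicate 2, so that sample could have had the level of DKO replicate 3. The difference was 0.94 points (interval -0.75 to 2.62), and 0 without DKO replicate 3. In the 1 kb window that reaches farther upstream, chr11:69393001-69394000, 0 of 127, 116 and 167 WT reads were methylated, and the DKO samples had 2.78%, 1.09% and 4.39%, from 3, 2 and 5 methylated reads. The groups did not overlap, the difference was 2.75 points (interval 0.40 to 5.10), and the window was not called (adjusted p = 0.33 by the quasi-binomial test).

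Beyond the starts, the 5 intervals held 21 CpG-dense segments, each a union of 500 bp spans with at least 20 CpGs. Most had means under 10% in both groups, and the same few were higher in both. Of all segments tested, 36.9% had a mean under 10%. None of the 21 was called by the same test, against a background of 0% of 36255 segments. DKO was the higher group in 12 of the 21, and in 22494 of all 36255 segments. The median difference was 0.536 points, against 0.716 points over all segments. At 2 of the 21 the unadjusted p was under 0.05, against 9.13% of all segments, and limma on log2 ratios called 0. In 1 of the 21, at Cdkn1a, the DKO samples were all above WT, and in 0 all below, where 10.4% and 2.99% of all segments were. That segment, 4.37 to 5.26 kb downstream of the start, had 91.7%, 93.7% and 92.0% in WT and 99.5%, 94.8% and 94.6% in DKO.

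Dense segments at the starts had low levels. The segment over the Arf start (172 CpGs) had 3.44% ± 3.52 in WT and 3.97% ± 1.91 in DKO, and the one over the p16 start 4.58% ± 1.27 and 7.14% ± 4.12 (n = 3 each, SD, here and below). The Cdkn2b segment had 2.31% ± 1.14 and 5.20% ± 2.49, the Cdkn2c segment 1.76% ± 2.60 and 0.31% ± 0.40, and the Cdkn1a segment (180 CpGs) 4.02% ± 1.17 and 4.40% ± 2.90. The Cdkn1b segment (162 CpGs) had 1.82% ± 0.92 and 2.73% ± 1.81. The segment over the start of Trp53 had 0.17% ± 0.30 and 1.22% ± 1.47, and the one just upstream, over another start of Wrap53, 9.38% ± 1.47 and 6.23% ± 1.68. Among these the largest difference was at that upstream segment, -3.15 points (interval -7.17 to 0.87).

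Other dense segments of the intervals fell into low and high ones. Downstream of the p16 start, segments at 4.94, 6.88 and 8.39 kb had 8.22% ± 3.57, 7.18% ± 4.84 and 6.05% ± 3.35 in WT and 7.85% ± 2.53, 2.79% ± 1.37 and 3.13% ± 0.75 in DKO. A segment 3.45 kb downstream of the Cdkn2b start had 9.78% ± 1.09 and 7.73% ± 3.69. In the Cdkn2c interval, the segment at the start of Faf1, which encodes a Fas-associated factor, had 2.40% ± 4.00 and 0.87% ± 1.37. The segment at the start of 9630013D21Rik had 0% in each WT sample and 4.07%, 3.25% and 0% in DKO, a difference of 2.44 points (interval 0.49 to 4.39; adjusted p = 0.40 by the quasi-binomial test). Both segments downstream of Cdkn1b, near the start of the noncoding gene Lockd, had 0.35% ± 0.60 and 0.27% ± 0.24 in WT and 1.28% ± 1.06 and 1.12% ± 1.93 in DKO. The segment at the far end of the Trp53 interval had 3.66% ± 1.80 and 1.53% ± 0.91.

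Methylated segments were found at Trp53 and Cdkn1a. A segment 7.68 to 8.59 kb downstream of the Trp53 start had 96.4% ± 1.85 in WT and 98.7% ± 1.10 in DKO. A segment 7.35 kb downstream of the Cdkn1a start had 80.2% ± 14.1 and 77.1% ± 8.14. Intermediate levels were found in a segment 12.5 to 11.8 kb upstream of Cdkn1a, where the WT samples ranged widely, with 21.2%, 33.6% and 59.7%, and the DKO samples were close together, with 43.6%, 47.1% and 44.9%. Its difference of 7.03 points had an interval of -10.04 to 24.1.

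Flanks of the dense segments had a higher DKO mean more often than not, at these loci and over all autosomes. A flank, or shore, is here the CpGs within 2 kb of a dense segment and outside all such segments. Of 20 tested at these loci, 18 had a higher DKO mean, as had 26430 of all 39984 shores tested, and the median difference was 5.74 points, against 1.54 points over all of them. The shores of neighbouring segments share CpGs, and most shores of the genome lie at higher levels, with a median of 86.2% in WT. None of the 20 was called, where the background was 1.78% called higher and 0.03% called lower. The unadjusted p was under 0.05 at 5 of the 20, against 13% of all shores, and limma on log2 ratios called 0. The DKO samples were all above WT at 1 of the 20 and all below at 2, against 13.5% and 2.86% of all shores. The higher shore flanks the outermost segment downstream of the p16 start and had 3.28%, 1.97% and 3.19% in WT and 11%, 4.27% and 11.3% in DKO, a difference of 6.02 points (interval 1.58 to 10.4; adjusted p = 0.19 by the quasi-binomial test). The shore of the segment upstream of the Trp53 start had 74.2%, 57.8% and 52.1% in WT and 82.0%, 78.4% and 62.3% in DKO; the difference was 12.9 points (interval 2.36 to 23.4; adjusted p = 0.20), with overlapping groups, and 8.25 to 19.3 points with a library left out. The lower shores flank the segment at the far end of the Trp53 interval and the 9630013D21Rik segment, with differences of -6.57 and -8.43 points.

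**Figure D2:**
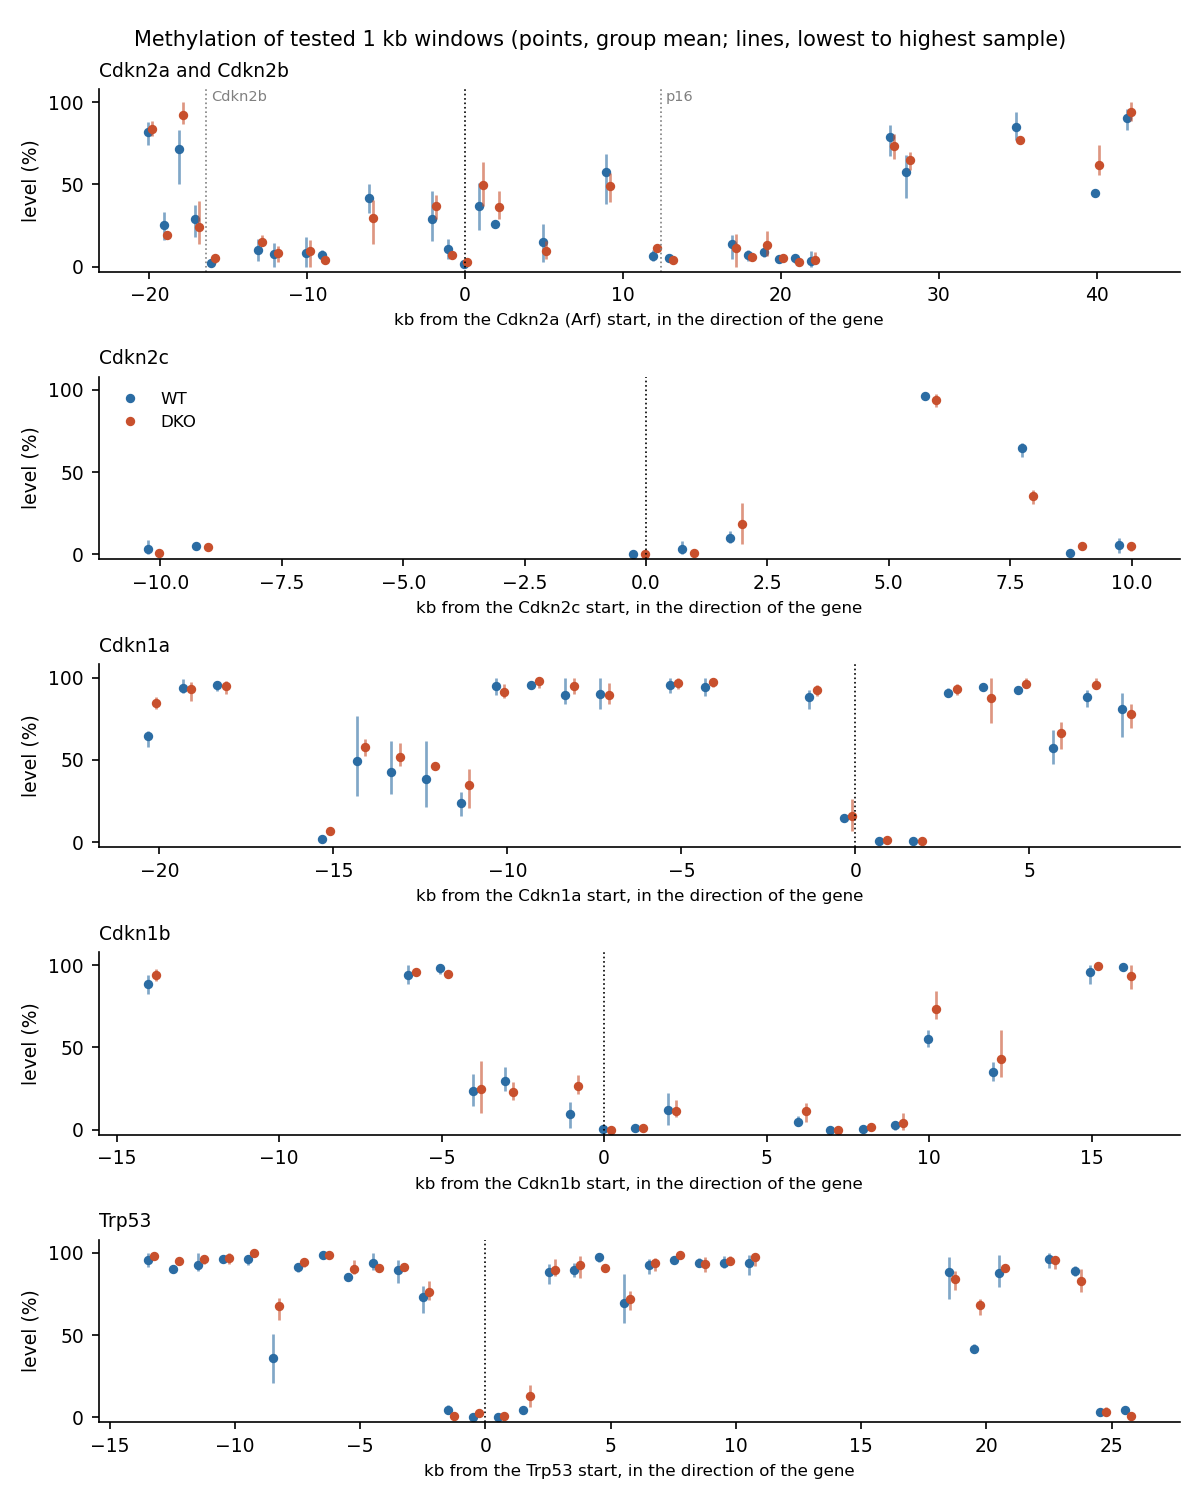
CpG methylation level (%) of the 112 tested 1 kb windows against distance from a start, in kb along the gene, 1 panel per interval. Points are group means of 3 samples and lines run from the lowest to the highest sample. Windows over the starts are low in both groups, and at Cdkn2a and Cdkn2b low windows extend over much of the interval.

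In 1 kb windows the whole of each locus was compared. Of 217 windows with a CpG, 112 passed the minimum of 3 CpGs and of 20 reads per sample: 30 at Cdkn2a and Cdkn2b, 9 at Cdkn2c, 24 at Cdkn1a, 17 at Cdkn1b and 32 at Trp53. Sorted by their mean level over all 6 samples, 33 windows lay under 10%, 20 between 10% and 50%, 14 between 50% and 80%, and 45 at 80% or more. The DKO mean was higher in 71 of 112 windows, and in 451073 of all 774732 windows tested. The unadjusted p was under 0.05 in 15 of the 112, against 9.27% of all windows. The DKO samples were all above WT in 16 and all below in 4 of the 112, against 9.05% and 3.75% of all windows. Over the 112 the median difference was 1.20 points, and 0.928 points over all 774732 windows tested.

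Differences were larger in windows of intermediate level, here and over all autosomes. Summed over the windows under 10%, the WT samples had 3.87%, 2.04% and 2.12% and the DKO samples 2.65%, 2.79% and 3.04%, a difference of 0.15 points with overlapping groups. In windows between 10% and 50% the WT samples had 21.3%, 20.4% and 22.2% and the DKO samples 26.9%, 25.2% and 25.0%. In those between 50% and 80% the values were 57.4%, 60.1% and 61.4% against 68.8%, 71.6% and 67.0%. All DKO samples were above all WT samples in both middle classes, by 4.43 and 9.55 points in the mean (p = 0.1 by a two-sided exact permutation test, the lowest that 3 against 3 can give). Over all tested autosomal windows the same classes differed by 4.99 and 6.01 points. Windows of 80% or more had 92.2% ± 0.76 in WT and 93.6% ± 1.32 in DKO (n = 3, SD; exact permutation p = 0.2).

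At Trp53 1 of the 112 windows was called, higher in DKO, against a background of 0.49% of windows called higher and 0.00723% called lower. It lies at chr11:69413001-69414000, 19.1 to 20.1 kb downstream of the Trp53 start, and Atp1b2 is the next gene in RefSeq's order after Trp53. With 17 CpGs and 50 to 97 reads, it had 40.7%, 38.9% and 44.8% in WT and 71.2%, 72.2% and 62.0% in DKO. The lowest DKO sample was above the highest WT sample, and the difference was 27.0 points (interval 13.7 to 40.3; adjusted p = 0.0414 by the quasi-binomial test). The call ended when any library was left out, with adjusted p of 0.105 to 0.337, while the difference stayed between 25.2 and 30.2 points. It also ended with limma on log2 ratios (adjusted p = 0.577) and with minima of 10 or 40 reads (adjusted p = 0.148 and 0.105).

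Another window of the Trp53 interval had a larger difference and missed the threshold. At chr11:69385001-69386000, 8.86 to 7.86 kb upstream of the start, 15 CpGs had 50.8%, 20.8% and 36.6% in WT and 72.9%, 59.4% and 70.6% in DKO. The groups did not overlap, although the WT samples spread widely. The difference was 31.6 points (interval 15.9 to 47.2; adjusted p = 0.0522 by the quasi-binomial test). Windows on both sides of it were above 90% in both groups, as the profile of the Trp53 interval shows. The largest negative difference at Trp53 was -6.59 points, at chr11:69398001-69399000, from 97.4% ± 2.80 in WT to 90.8% ± 1.12 in DKO (n = 3, SD).

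**Figure D3:**
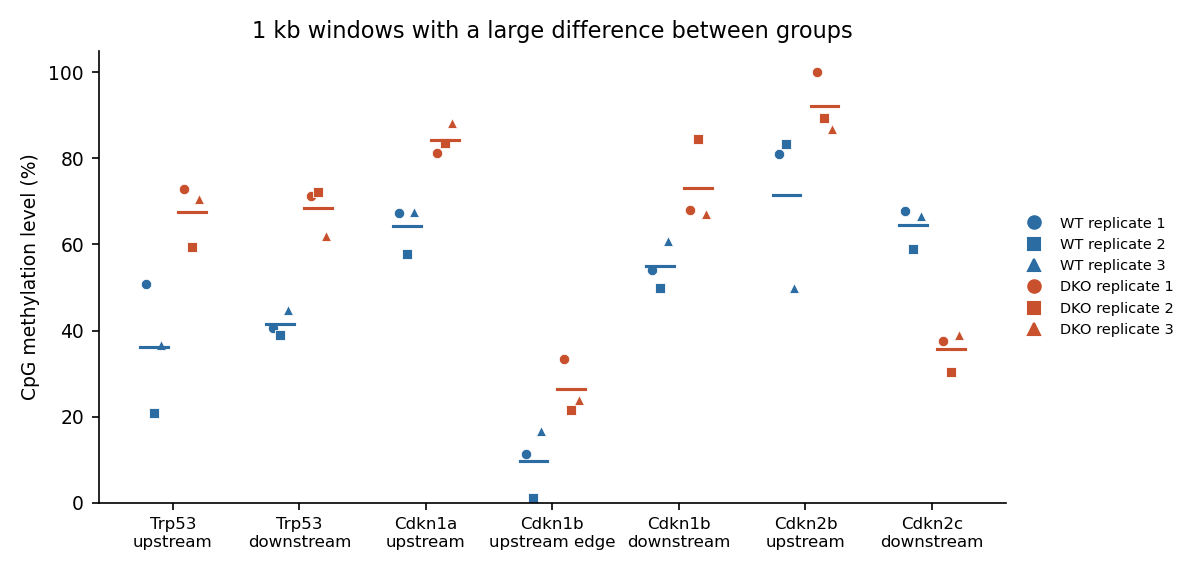
CpG methylation level (%) of 7 windows of 1 kb, named by the nearest member start, with 1 point per sample and a line at each group mean (3 WT samples in blue, 3 DKO in orange). In 6 windows every DKO sample lies above every WT sample, by 16.7 to 31.6 points in the mean, and in the Cdkn2c window every DKO sample lies below; the Trp53 downstream window alone was called, and the windows were picked for their differences.

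The Cdkn1b window with the smallest p lay at the upstream edge of its unmethylated promoter. The window chr6:134869001-134870000, 1.42 to 0.42 kb upstream of the start, had 11.3%, 1.05% and 16.7% in WT and 33.3%, 21.6% and 24.0% in DKO (25 CpGs, 80 to 208 reads). All DKO samples were above all WT samples, by 16.7 points in the mean (interval 7.83 to 25.5), but the window did not pass the test (adjusted p = 0.14 by the quasi-binomial test). Nearer the start, from 1 to 0.5 kb upstream, the values were 9.52%, 1.45% and 8.70% in WT and 10.7%, 14.9% and 22.3% in DKO. From 0.5 kb upstream to the start they were 0.62%, 0.62% and 0% in WT and 1.06%, 0% and 0% in DKO. Farther downstream, at chr6:134880001-134881000 near Lockd, the WT samples had 54%, 50% and 60.9% and the DKO samples 68.1%, 84.6% and 67.0%, with no overlap and a difference of 18.3 points (adjusted p = 0.32 by the quasi-binomial test). The largest negative difference at this locus was -6.84 points, at chr6:134867001-134868000, with overlapping groups, and -2.70 without WT replicate 3.

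Cdkn1a had its largest difference far from the gene. The window chr17:29210001-29211000, 20.7 to 19.7 kb upstream of the placed start, had 67.4%, 57.9% and 67.6% in WT and 81.2%, 83.7% and 88.2% in DKO. The groups did not overlap and differed by 20.0 points (interval 8.28 to 31.8; adjusted p = 0.10 by the quasi-binomial test). Windows between 10% and 50%, of which this locus had 4, had 24.8% ± 5.12 in WT and 35.5% ± 4.93 in DKO, again without overlap (n = 3, SD; exact permutation p = 0.1). The largest negative difference, -6.53 points at chr17:29234001-29235000, came from DKO replicate 2, with 72.2% against 100% and 90.9% in the other DKO samples, and was 1.24 points without it.

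Cdkn2a and Cdkn2b lay in a long stretch of low methylation. Of 30 tested windows 12 were under 10% and 10 between 10% and 50%. The largest difference was 20.7 points at chr4:88958001-88959000, 2.06 to 1.06 kb upstream of the Cdkn2b start, with 81.0%, 83.3% and 50% in WT and 100%, 89.5% and 86.8% in DKO (20 to 38 reads; adjusted p = 0.49 by the quasi-binomial test). WT replicate 3 was the low sample, and the difference was 9.96 points without it. The window with the smallest p at this locus, chr4:88956001-88957000 over the Cdkn2b start, had 2.19% in WT and 5.20% in DKO (adjusted p = 0.36). The largest negative difference was -12.1 points, at chr4:88946001-88947000, with overlapping groups. DKO replicate 3 was the low sample there, with 13.8% against 40.6% and 34.0%, and the difference was -4.22 points without it. The 12 windows under 10% had 5.13% ± 1.24 and 5.25% ± 0.34, and the 10 between 10% and 50% had 21.6% ± 3.98 and 21.6% ± 3.42 (n = 3, SD).

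Cdkn2c had the largest difference towards lower DKO levels. At chr4:109331001-109332000, 8.36 to 7.36 kb downstream of the upstream Cdkn2c start and next to the unmethylated start of 9630013D21Rik, 14 CpGs had 67.9%, 59.0% and 66.7% in WT and 37.7%, 30.4% and 39.1% in DKO. The highest DKO sample was below the lowest WT sample. The difference was -28.8 points (interval -47.1 to -10.5), and the window was not called (23 to 77 reads; adjusted p = 0.22 by the quasi-binomial test). The neighbouring window, chr4:109330001-109331000, had 0%, 1.14% and 0.53% in WT and 4.96%, 5.45% and 4.44% in DKO, the other direction (adjusted p = 0.11). The largest positive difference was 8.68 points, at chr4:109337001-109338000, where the groups overlapped, with 8.64%, 6.85% and 14.1% in WT and 31.2%, 6.16% and 18.3% in DKO. It was 2.37 points without DKO replicate 1 and 14.9 without DKO replicate 2.

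**Figure D4:**
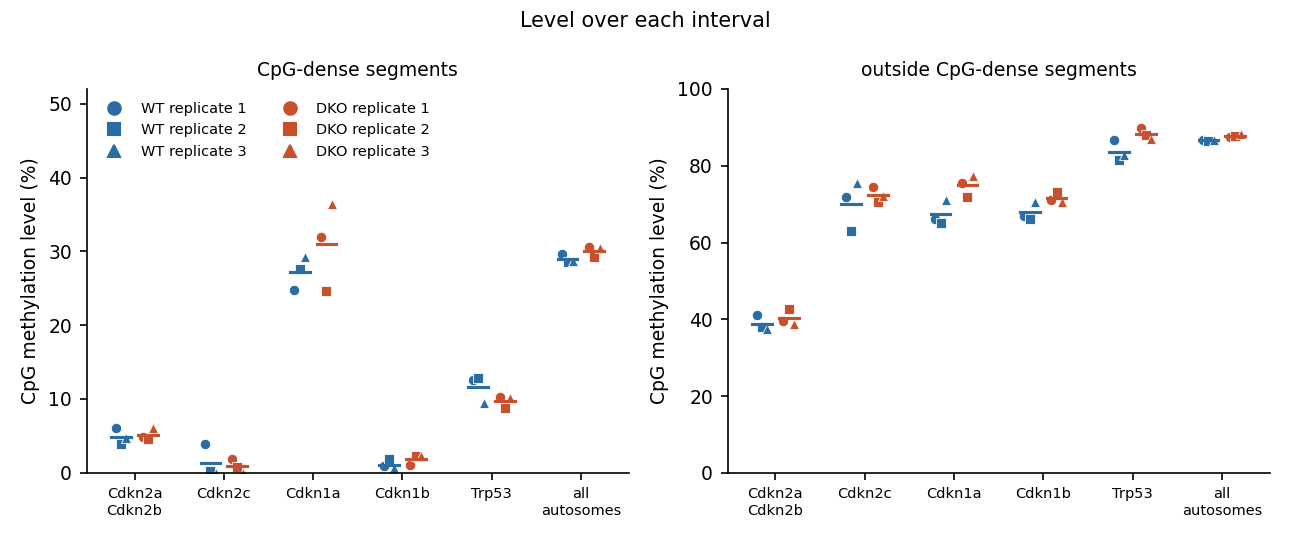
CpG methylation level (%) of the 5 intervals and of all autosomes, inside CpG-dense segments (left) and outside them (right), with 1 point per sample and a line at each group mean. Outside the segments, all DKO samples lie above all WT samples at Cdkn1a, Cdkn1b, Trp53 and over all autosomes.

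Over whole intervals the direction depended on how CpGs were weighted. With all reads, the DKO minus WT difference was -1.74 points at Cdkn2a and Cdkn2b, -3.84 at Cdkn2c and -2.76 at Trp53, and 6.38 at Cdkn1a and 5.50 at Cdkn1b. These signs held with any library left out, with -2.65 to -0.31, -6.93 to -0.43 and -4.09 to -1.52 points at the first 3. Outside the dense segments it was 1.51, 2.25 and 4.63 points at the first 3, so the sign turned, and 7.54 and 3.82 points at Cdkn1a and Cdkn1b. With each CpG weighted alike in every sample it was 1.79 points at Cdkn2a and Cdkn2b, -0.91 at Cdkn2c, 2.13 at Trp53, 3.85 at Cdkn1a and 3.04 at Cdkn1b.

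Outside the dense segments, Trp53 had 86.7%, 81.4% and 82.8% in WT and 89.8%, 88.0% and 86.9% in DKO. Cdkn1a had 66.2%, 65.0% and 71.1% in WT and 75.5%, 72.0% and 77.4% in DKO, and Cdkn1b 66.9%, 66.0% and 70.5% against 71.1%, 73.1% and 70.7%. At these 3 loci the groups did not overlap (p = 0.1 by the exact permutation test, the lowest it can give, n = 3). The share of other stretches of like length without overlap was not taken, so this says nothing particular about these loci. At Cdkn2a and Cdkn2b the level was 38.9% ± 1.89 in WT and 40.4% ± 2.06 in DKO (n = 3, SD; exact permutation p = 0.5), and at Cdkn2c 70.1% ± 6.42 and 72.4% ± 1.91 (exact permutation p = 0.8). Over all autosomes the same measure differed by 1.19 points, from 86.6% ± 0.10 to 87.8% ± 0.39 (n = 3, SD), also without overlap. Inside dense segments the differences were 0.23, -0.53, 3.82, 0.78 and -1.94 points for Cdkn2a and Cdkn2b, Cdkn2c, Cdkn1a, Cdkn1b and Trp53, and the groups overlapped at each.

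Partner genes of the pathway had few exceptions to low promoter methylation, and none was called. The background was 0% of all promoters called, so these counts say nothing particular about the lists. Of all promoters tested, 71.8% had a mean under 10%. Of 18 genes for cyclin-dependent kinases, their cyclins and inhibitors, the retinoblastoma family and E2F factors, 10 had a tested promoter, 13 promoters in all, and 0 were called. The median difference was 0.376 points. Group means were under 10% at 12 of the 13. The exception was the E2f2 start at 135736697, with 75.0% ± 6.62 in WT and 78.7% ± 3.40 in DKO (n = 3, SD). Cdk6, the kinase that INK4 proteins bind, had the highest difference, 4.69 points, all from DKO replicate 1 with 14.1%, while the other 5 samples were at 0%. Cdk2 had the lowest, -3.97 points, with 15.4% in WT replicate 3 and 0% to 3.32% in the other samples. Among 20 genes of the p53 side, 15 had a tested promoter, 19 in all, with 0 called and a median of 0.160 points. Sesn2, a stress-induced p53 target, had the highest difference, with 0% in each WT sample and 0.75%, 0% and 7.46% in DKO. The lowest was at the methylated promoter of Trp73, the gene of the relative p73, with 85.5%, 85.4% and 90.5% in WT and 75.0%, 84.7% and 72.3% in DKO, a difference of -9.75 points (adjusted p = 0.51 by the quasi-binomial test). Mdm2, which encodes the inhibitor of p53, had 0.31% ± 0.34 in WT and 1.47% ± 0.89 in DKO (n = 3, SD).

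Regulators that act on the Cdkn2a and Cdkn2b locus also had low levels, and their count of calls again stands against a background of 0% of all promoters. Of 8 genes, among them Polycomb proteins and the Arf activator Dmtf1, 5 had a tested promoter and 0 were called. All 5 were under 5% in both groups. Cbx7, a Polycomb protein known to repress this locus, had the highest difference, 1.67 points, and Dmtf1 the lowest, -2.55 points, with 0%, 2.34% and 5.30% in WT and 0% in each DKO sample. The other 3, Ring1, Rnf2 and Ezh2, differed by 1.39, 0.57 and -0.08 points.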

How the data were processed

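The table the authors deposited gives, per sample and CpG, a raw count of methylated reads beside the total count, without normalisation or pooling. The submitters' processing notes name BSMAP 2.74 and mm9; filters, removal of duplicates and trimming are not stated in the sources used here. Duplicate reads and reads that cover several CpGs make the error larger than the read numbers imply. The test takes this excess from the spread between replicates, which is missing where no sample has a methylated read. Limits of a count of 0 (3 reads) cover counting error only. There were 0 columns of other samples.

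A level is the percent of reads that are methylated. Sums were taken over 1 kb windows, CpG-dense segments, their shores and promoters, each with at least 20 reads in every sample. Groups were compared by a quasi-binomial model with the dispersion moderated as in limma's squeezeVar (limma 3.58.1 for the alternative test; numpy 2.4.6, scipy 1.17.1), floor 1, an F test and Benjamini-Hochberg adjustment over all autosomal features. The scripts were tested on simulated data. Whole intervals were compared by two-sided exact permutation tests.

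No mm9 annotation was used, so exons and introns are not given. RefSeq promoters (GRCm38.p6) with at least 6 CpGs were placed on mm9 by their CpG spacing, 18225 of 18541, or 98.3%; genes not placed are not described.

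The members and gene lists were chosen with earlier results of these data known. Named features are all member promoters and dense segments, called windows, and the windows with the largest difference in each direction per interval. The window with the smallest p per interval, the shores, the single CpGs and the promoter of Gm12610 were chosen after their values were seen. Replicates of a group differed by more than sampling noise (chi-square per degree of freedom of 11.8 to 117). Alternatives were read minima, limma, a replicate block, Fisher's exact test, other window, segment, shore and promoter sizes, other weights, each sample left out, and, chosen after seeing the data, a dispersion prior from features with reads of both kinds.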

Additional observations from a re-analysis of the deposited data

How the results depend on the processing

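In the 5 intervals, the count of 1 called window became 0 with minima of 10 and of 40 reads, limma on log2 ratios, a replicate block, 500 bp windows, a dispersion prior from features with reads of both kinds (chosen after seeing the data) and with any sample left out. It became 7 with Fisher's exact test on pooled reads, which ignores the spread between samples, and stayed at 1 with no minimum difference. The called window at Trp53 kept its direction throughout, with adjusted p of 0.0831 under the added prior and 0.572 with the replicate block. Over all autosomes the 3854 calls became 304, 271, 0, 0 and 0 with the first 5 of these settings, in that order, 2512 with the added prior, 50074 with Fisher's test and 29 to 749 with a sample left out. Calls of dense segments, 0 over all autosomes, became 434 with at least 15 CpGs per 500 bp, with 0 in the intervals. Calls of shores, 725, became 0 with limma, 356 with flanks of 1 kb and 394 to 623 with a sample left out, and 570 with the replicate block. Promoters had 0 calls in every setting run.

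Small differences at dense segments and starts changed sign, all of them uncalled. With at least 15 CpGs per 500 bp the segments over the Trp53 and Arf starts differed by -0.53 and -1.16 points. With a sample left out, the difference was -1.46 to 17.8, -1.22 to 1.62 and -11.1 to 1.99 points in the Cdkn1a segments upstream, at the start and farthest downstream, -1.71 to 1.67 in the Cdkn2a segment 4.94 kb past the p16 start and -0.66 to 2.56 over the Arf start. It was -2.34 to 0.035 over the Cdkn2c start, -2.73 to 0.780 at Faf1, -0.13 to 1.5 over the Cdkn1b start and -0.27 to 1.40 in the segment nearest Lockd. For promoters it was -0.22 to 0.068 at Cdkn1b, -3.19 to 2.47 at Cdkn1a, 0 to 1.40 at Trp53 and -0.058 to 2.56 at the Arf start. The largest negative window of Cdkn1a ranged from -12.7 to 1.24. With 250 bp on each side of the start, Trp53 differed by 0 and Cdkn1a by 0.22 points; with 1000 bp, Cdkn1a, the upstream Cdkn2c start and Cdkn1b differed by 0.53, -1.19 and 1.81 points. Whole-interval differences became 1.79 and 2.13 points at Cdkn2a and Cdkn2b and at Trp53 with equal CpG weights, and 1.51, 4.63 and 2.25 points there and at Cdkn2c without dense segments. CpGs with 5 reads in every sample were too few, 1 to 8 per interval, for that planned setting. The causes were not tested. Replicate numbers were not treated as pairs: deviations of same-numbered samples correlated at 0.0033 to 0.0036 over windows, although each sample correlated best with its own number, a hint from the data and not from the design. No other member call changed with the replicate block. Depth limits single CpGs: at 3 to 5 reads per CpG and sample they give no level of their own.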
